A study of Mus musculus with 48 samples.

Results

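The comparison described here sets epididymal white adipose tissue (eWAT) of mice labelled as adipose-specific Txnip knockouts against the same tissue of mice labelled wild type, both fed a ketogenic diet. The libraries were chosen by their labels alone: 8 carry the knockout label and 8 the wild type label, 16 of the 48 mRNA sequencing libraries of the series. The other libraries are eWAT of both genotype labels on a control diet (7 and 7), used below for 1 test of the diet, and sorted macrophage-labelled cells, not used here. The labels name neither the Cre driver, the floxed allele, nor the age or sex of the mice, and they do not say that each library came from another animal. The p-values therefore measure the spread between these libraries. The 16 libraries form 1 set in the titles, with no batch given within it. Total gene counts ran from 17.4 to 25.1 M (median 23.4) with the wild type label and from 21.0 to 39.0 M (median 28.4) with the knockout label.

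Txnip encodes an arrestin-like protein that binds thioredoxin and restrains glucose uptake, and its transcription follows glucose through the MondoA and ChREBP factors. White adipocytes store triglyceride and release its fatty acids when carbohydrate is scarce, as on a ketogenic diet, and they also break down the branched-chain amino acids. Macrophages and other immune cells live between the adipocytes, and mesothelium covers the depot. The tissue label was checked against its markers. Adipoq, the adipocyte hormone adiponectin, stood at 2907 (lowest), 3134 (median) and 3499.6 (highest) CPM with the wild type label and at 2700.2, 2939 and 3113 with the knockout label. Of 10 epididymis and testis markers 5 were at 0 in all 16 libraries, and their summed level reached 13.6 CPM in 1 wild type library and at most 0.456 CPM with the knockout label. CPM, a gene's share of the library's counts per 1e6, are scaled between libraries by TMM and not by gene length, so they compare libraries and not genes.

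Of 15225 genes tested, 512 (3.36%) differed between the genotype labels at an adjusted p under 0.05 by edgeR's quasi-likelihood test with Benjamini-Hochberg adjustment. In the libraries labelled knockout 226 were higher (1.48%) and 286 lower (1.88%). By their medians the rises were steeper and lower in level than the falls. Genes called higher had a median log2 fold change of 0.55 (0.14 to 2.67) and a median level of 13.3 CPM, whereas genes called lower had a median of -0.35 (-2.04 to -0.12) and a level of 35.9 CPM. The median over all genes tested was -0.002 at 16 CPM. Of the called genes 185 passed in every run that left out 1 of the 16 libraries, 75 higher and 110 lower. Single libraries moved the counts: 87 were higher and 118 lower without knockout replicate 6, against 371 and 417 without wild type replicate 1. Counts thinned to the smallest library left 130 higher and 181 lower, and the part of the depth difference between the labels in single calls was not tested beyond that.

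**Figure D1:**
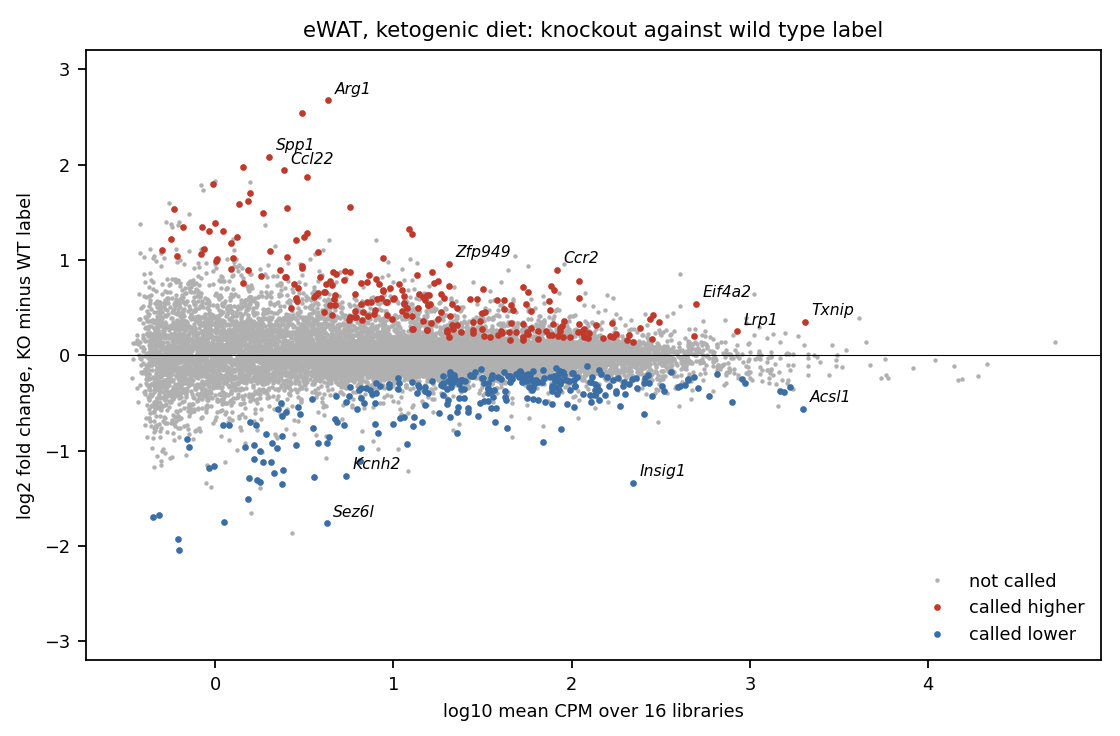
Fitted log2 fold change, knockout minus wild type label, of each of 15225 genes against the log10 of its mean CPM over 16 libraries. Red points are the 226 genes called higher, blue points the 286 called lower, and grey points were not called; the red points reach 2.67 at low levels and most blue points lie close under the zero line.

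Txnip itself was not lower in the libraries labelled knockout. It stood at 1359, 1794 and 2205 CPM (lowest, median and highest) with the wild type label and at 1996, 2246 and 2669.9 CPM with the knockout label. The groups overlapped, with wild type replicates 1 and 4 above the lowest library labelled knockout. The difference was 0.35 ± 0.09 (log2 fold change ± SE, n = 8 and 8, edgeR adjusted p = 0.044), against the label, and it was called in 5 of the 16 runs without 1 library, with adjusted p up to 0.084 in the others. On the control diet Txnip was also higher with the knockout label, by 0.69 ± 0.10 in a fit of all 4 eWAT groups (edgeR adjusted p = 1.1e-05). All comparisons below are therefore between labels, not between shown genotypes. Counts were summed over the gene, and no exon was examined on its own.

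The bases before the Txnip start are shown because they carry the glucose-responsive element that links the gene to MondoA and ChREBP. The window is chr3:96557707-96557956 on the plus strand of GRCm38.p6 (RefSeq), outside the transcribed part of the gene. Capitals mark the CCAAT box (CCAAT on either strand) and the carbohydrate response element, made of CACGNG and CNCGNG with 5 bases between them (both strands searched).
Txnip: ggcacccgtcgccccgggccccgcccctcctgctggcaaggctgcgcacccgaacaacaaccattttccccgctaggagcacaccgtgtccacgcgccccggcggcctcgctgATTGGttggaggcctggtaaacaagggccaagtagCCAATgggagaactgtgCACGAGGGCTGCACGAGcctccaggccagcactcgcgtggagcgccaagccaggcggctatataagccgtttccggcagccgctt
The window held 1 match to the response element, which 0.28% of 32851 promoter windows of this length held, and 2 CCAAT boxes, found in 33.8% of windows. The motifs did not overlap. These matches are a description of letters, not of binding.

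Few genes around Txnip, and few of its relatives or of the thioredoxin system, were called. Within 5 Mb of Txnip 4 of 116 tested genes were called (3.45%, beside 3.36% of all genes), all higher: Txnip, its near neighbour Lix1l (0.24 ± 0.05, adjusted p = 0.013), Ctss, the lysosomal protease cathepsin S (0.69 ± 0.18, adjusted p = 0.043), and Adamtsl4 (0.31 ± 0.07, adjusted p = 0.021). Of 7 related arrestins and glucose sensors none passed the edgeR test, none had an unadjusted p under 0.05, none was called by DESeq2 or limma-voom, and the median was -0.01. Arrdc4, the closest relative that glucose induces, stood at 20.7, 29.2 and 32.7 CPM with the wild type label and at 25.4, 29.8 and 39.8 with the knockout label (0.20 ± 0.11, adjusted p = 0.37). Mlxipl, which encodes ChREBP, differed by -0.01 ± 0.18 (adjusted p = 0.99). Among 19 thioredoxin and NRF2 target genes 1 passed, Slc7a11, the cystine importer, at 0.246, 0.646 and 1.27 CPM against 0.537, 2.16 and 4.26 (1.71 ± 0.38, adjusted p = 0.023; 0.083 by limma-voom). The list's median was 0.

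In 66 genes the 8 libraries labelled knockout did not overlap the 8 labelled wild type, 24 higher (0.158% of genes tested) and 42 lower (0.276%). The clearest was Zfp949, a zinc finger gene on chromosome 9 (88548020 to 88571061, GRCm38). It stood at 12.7, 13.4 and 17.2 CPM with the wild type label and at 23.9, 26.7 and 30.4 with the knockout label (0.96 ± 0.06, adjusted p = 1.3e-07). Each library labelled knockout thus lay well above each wild type library, and the difference on the control diet was 1.13 ± 0.07. The processed pseudogenes Gm11868 (2.54 ± 0.18) and Gm7049 (1.32 ± 0.15) separated the same way, although reads of a pseudogene can be shared with its parent gene. Eif4a2, which encodes an RNA helicase of translation initiation, stood at 330.3, 409 and 470.1 CPM against 544, 607 and 621 (0.54 ± 0.06, adjusted p = 0.00019). On chromosome 16 (23107444 to 23114136, plus strand) its 3' end overlaps that of Rfc4 (23113943 to 23127737, minus strand), near Adipoq at 23146536; the counts used are of 1 strand. Rfc4, a clamp loader subunit of DNA replication, also separated (0.54 ± 0.10, adjusted p = 0.012), while Adipoq differed by -0.12 ± 0.05 (adjusted p = 0.24).

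Among genes that separated downward were Kcnk2, a potassium channel (14, 15.9 and 19.1 CPM against 8.41, 9.67 and 11; -0.74 ± 0.08, adjusted p = 4.7e-05), and Rims4, a gene of the synaptic active zone family (-1.11 ± 0.13, adjusted p = 0.00019). Nos3, the endothelial nitric oxide synthase, and Opn3, a light-sensing opsin, are 2 further examples chosen after their values were seen. Nos3 fell from 30.9, 36.1 and 41.8 CPM to 20.5, 22.7 and 28.6 (-0.64 ± 0.08, adjusted p = 0.00019), while none of 10 endothelial markers passed by edgeR, DESeq2 or limma-voom, 1 had an unadjusted p under 0.05, and their median was -0.06. Opn3 fell by 0.44 on the log2 scale (SE 0.05, adjusted p = 0.0002). Nap1l5, an imprinted gene, stood at 2.66, 3.13 and 4.55 CPM against 0.961, 1.32 and 1.68 (-1.35 ± 0.16, adjusted p = 0.00019). It was the only called gene of 16 imprinted genes tested (6.25%, beside 1.88% of all genes lower).

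**Figure D2:**
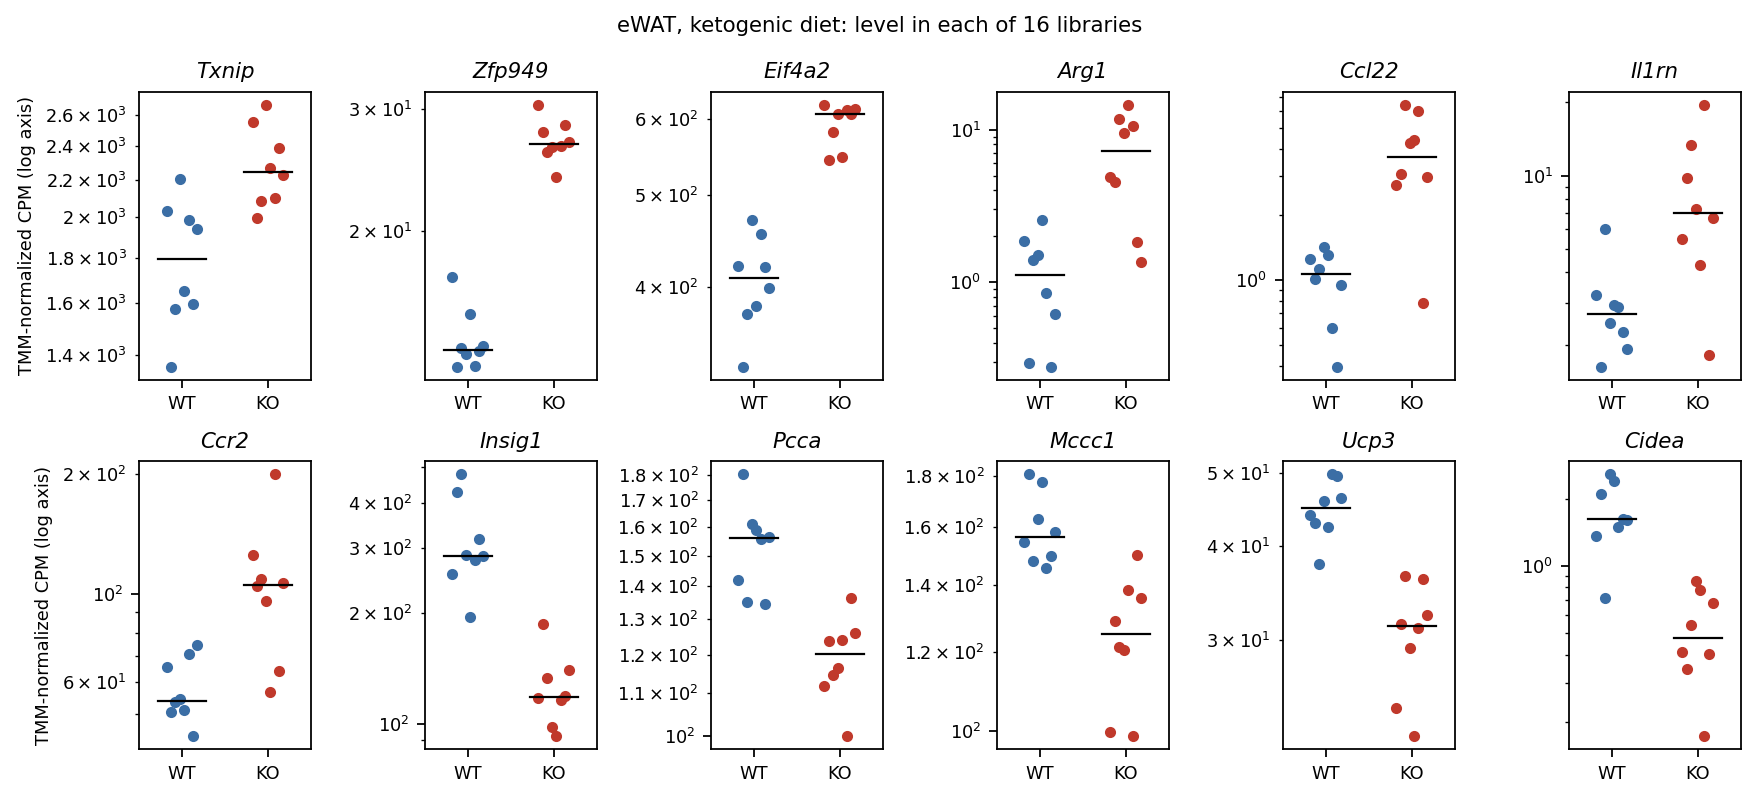
TMM-normalized CPM on log axes of 12 genes in the 8 libraries labelled wild type (blue) and the 8 labelled knockout (red) on the ketogenic diet; black lines are group medians. Zfp949, Eif4a2, Insig1 and Ucp3 separate without overlap, whereas Txnip, Arg1, Ccl22, Il1rn, Ccr2, Pcca, Mccc1 and Cidea overlap.

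Genes that break down branched-chain amino acids were lower with the knockout label. Of 18 genes 9 were lower (50%, beside 1.88% of all genes) and none higher (17 lower and 0 higher at an unadjusted p under 0.05; 12 and 0 by DESeq2, 9 and 0 by limma-voom). All 18 had a negative log2 fold change, with a median of -0.26 beside -0.002 over all genes. The called members stood along the whole route. Bcat2, which removes the amino group, fell by 0.41 on the log2 scale (SE 0.10, adjusted p = 0.034) and Dbt, the core of the branched-chain ketoacid dehydrogenase, by 0.28 (SE 0.06, adjusted p = 0.024). The other subunits of that dehydrogenase did not pass, Bckdha at -0.21 ± 0.08 (adjusted p = 0.16) and Bckdhb at -0.19 ± 0.07 (adjusted p = 0.12).

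The leucine branch followed with Ivd, isovaleryl-CoA dehydrogenase, at 171, 193 and 255 CPM against 125, 149 and 192 (-0.38 ± 0.09, adjusted p = 0.032). Both subunits of methylcrotonyl-CoA carboxylase fell, Mccc1 from 145, 157 and 181 CPM to 98.9, a median of 125 and a highest level just inside the wild type range (-0.36 ± 0.08, adjusted p = 0.021) and Mccc2 from 78.3, 86.9 and 96.7 to 56.2, 69.3 and 80.6 (-0.34 ± 0.07, adjusted p = 0.018). In each of these genes the groups overlapped, with the highest libraries labelled knockout inside the wild type range. Auh, the next enzyme of leucine breakdown, fell by 0.21 (SE 0.06, adjusted p = 0.048). In the propionate branch, shared by valine and isoleucine, both subunits of propionyl-CoA carboxylase fell. Pcca stood at 134, 156 and 180.2 CPM against 99.9, 120.2 and 136 (-0.36 ± 0.07, adjusted p = 0.0075), with 1 library labelled knockout above the 2 lowest wild type libraries. Pccb differed by -0.26 ± 0.07 (adjusted p = 0.038), and Mut, methylmalonyl-CoA mutase, by -0.25 ± 0.06 (adjusted p = 0.029).

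The summed level of the 18 genes was 3174, 3435 and 3892 CPM with the wild type label and 2392, 2865 and 3473 with the knockout label. Knockout replicates 5 and 7 lay within the wild type range. The count of 9 ranged from 3 to 13 when 1 library was left out. It was 3 to 5 without wild type replicates 2 or 5 or without knockout replicates 1, 2, 3, 4, 6 or 8. On the control diet 9 of the 18 were also lower, where 13.9% of all genes were, with a median of -0.20. Of the 18, 1 member, Bckdha, passed the edgeR test of a difference between diets (interaction adjusted p = 0.011), but not when an offset for GC content was added. Without that offset Bckdha was lower by more on the control diet. The adipocyte list moved in the same direction: its summed level, most of it Fabp4 and Lpl, was 49197, 53804 and 59146 CPM against 39012, 47335 and 52281, and 17 of its 18 members were negative with a median of -0.19. Of those 18, 3 were called lower (16.7%, beside 1.88% of all genes): Acsl1, Cidec and Aqp7. In bulk tissue fewer adipocytes and less RNA of these genes per adipocyte cannot be told apart.

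Other mitochondrial lists were negative as well. All 15 genes of the TCA cycle were negative with a median of -0.19, and none passed the edgeR test (11 at an unadjusted p under 0.05, 1 by DESeq2 and 1 by limma-voom); Suclg1, a subunit of succinyl-CoA ligase, came nearest (-0.27 ± 0.07, adjusted p = 0.051). All 21 oxidative phosphorylation genes were negative, also with a median of -0.19 (18 at an unadjusted p under 0.05, 3 by DESeq2 and 1 by limma-voom). By edgeR 1 was called (4.76%, beside 1.88% of all genes lower), Sdhc of complex II (-0.23 ± 0.06, adjusted p = 0.039). That count was 0 without wild type replicates 2, 4, 5, 7 or 8 or knockout replicates 1, 3, 4, 6 or 8, and 5 without knockout replicate 7. Of 15 genes of the mitochondrial chromosome 1 was called (6.67%, beside 1.88% of all genes lower), mt-Rnr2, the large ribosomal RNA (-0.39 ± 0.10, adjusted p = 0.043). The median of the 15 was -0.17. Of 21 fatty acid oxidation genes 20 were negative, with a median of -0.25, and 8 were called lower (38.1%, beside 1.88% of all genes). At an unadjusted p under 0.05 there were 19, by DESeq2 12 and by limma-voom 7. This count of 8 ran from 0 to 14 without 1 library: it was 0 without wild type replicates 2 or 8 or knockout replicate 6, and 14 without wild type replicate 1.

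**Figure D3:**
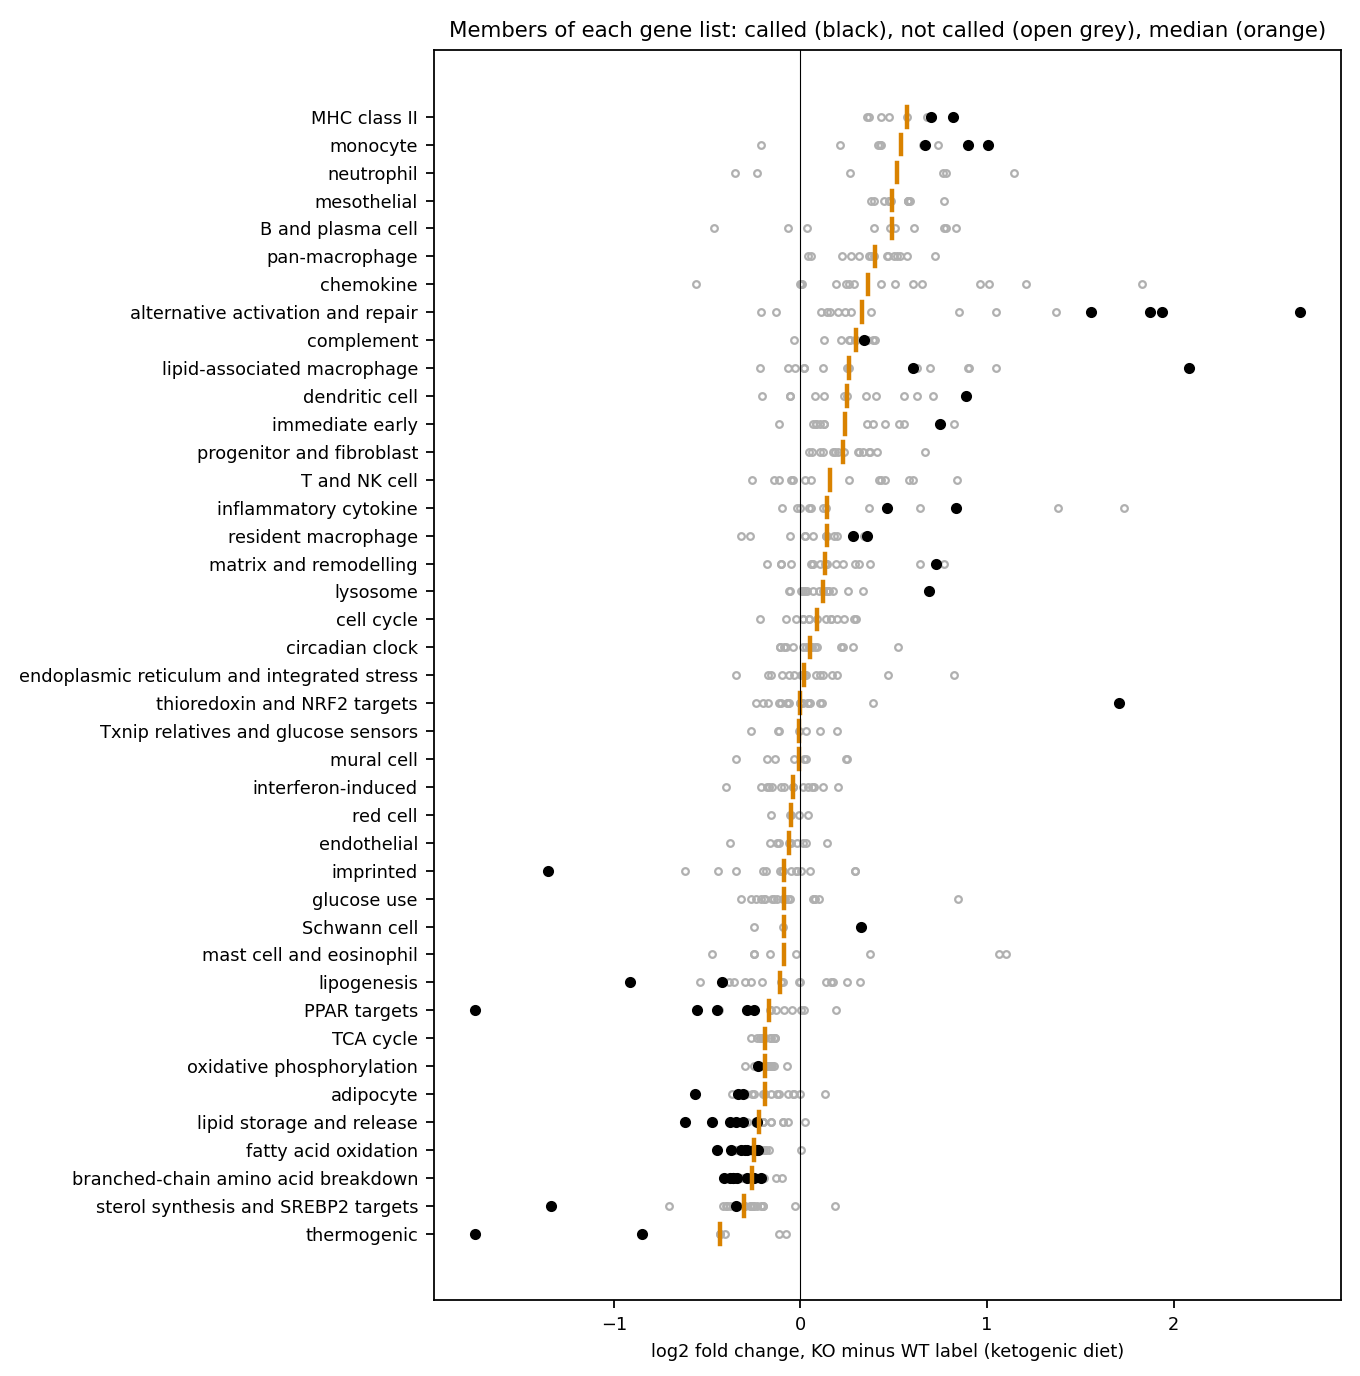
Fitted log2 fold change of each tested member of 41 gene lists, ordered by the list's median (orange bar); black points were called at an adjusted p under 0.05 over all genes and open grey points were not. Most lists of metabolism lie left of zero with small shifts, down to a median of -0.43 for 7 thermogenic genes, and most immune lists lie right of it with wide spread, up to 0.57 for MHC class II.

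Genes that build and empty the lipid droplet were lower in 6 of 18 (33.3%, beside 1.88% of all genes), with a median of -0.22. Of the enzymes that assemble triglyceride, Gpat3 (124, 162 and 199 CPM against 88.9, 126 and 142; -0.47 ± 0.10, adjusted p = 0.019), Agpat2 (-0.62 ± 0.16, adjusted p = 0.042) and Dgat1 (-0.38 ± 0.09, adjusted p = 0.031) fell. Dgat2, the other enzyme of the last step, varied more between libraries, at 746, 1334 and 1957 CPM against 875, 1174 and 1346 (-0.29 ± 0.15, adjusted p = 0.3). Abhd5, the activator of the lipase ATGL, and G0s2, its inhibitor, both fell (-0.23 ± 0.06 and -0.34 ± 0.08, adjusted p = 0.039 and 0.033). The lipases themselves did not pass: Pnpla2, which encodes ATGL, differed by -0.20 ± 0.09 (adjusted p = 0.23) and Lipe, hormone-sensitive lipase, by -0.07 ± 0.07 (adjusted p = 0.65). Aqp7, the glycerol channel, fell from 194, 224 and 271 CPM to 155, 189 and 212 (-0.31 ± 0.07, adjusted p = 0.027). The count of 6 was between 1 and 3 without wild type replicates 2, 5, 7 or 8 or knockout replicates 1, 2, 3, 4, 6 or 8.

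PPAR target genes, which fatty acids induce, were lower in 5 of 15 (33.3%, beside 1.88% of all genes), with a median of -0.17. Ucp3, a mitochondrial carrier of the uncoupling protein family, separated without overlap at 37.8, 45 and 49.8 CPM against 22.4, 31.3 and 36.5 (-0.55 ± 0.09, adjusted p = 0.0037). Cidea, a lipid droplet protein of thermogenic fat, stood at 0.715, 1.61 and 2.57 CPM against 0.173, 0.477 and 0.854 (-1.74 ± 0.29, adjusted p = 0.005). The other called members, Slc25a20 and Ehhadh among them, are also in the fatty acid oxidation list. Other targets did not pass: Pdk4 was at -0.43 ± 0.17 (adjusted p = 0.17), Angptl4 at -0.17 ± 0.13 (adjusted p = 0.53) and Cpt1a at 0.00 ± 0.10 (adjusted p = 0.99). The count of 5 was 2 or 3 without wild type replicates 2, 4, 5, 6 or 8 or knockout replicates 1, 3, 4, 6 or 8, and 2 with all 4 eWAT groups in 1 fit.

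Insig1, which holds the sterol sensor SCAP in the endoplasmic reticulum and is itself an SREBP target, had the largest fall of any gene above 100 CPM. It stood at 195, 287 and 477 CPM with the wild type label and at 92.4, 118 and 187 with the knockout label (-1.33 ± 0.17, adjusted p = 0.00084). Even the highest library labelled knockout lay under the lowest wild type library. Among 22 sterol synthesis genes and SREBP2 targets Msmo1, a sterol C4 demethylation enzyme, was the other one called (-0.35 ± 0.09, adjusted p = 0.036). The 2 calls were 9.09% of the list, beside 1.88% of all genes lower (16 lower at an unadjusted p under 0.05, 8 by DESeq2 and 3 by limma-voom). Of the 22 genes 21 were negative, and the median was -0.30. Srebf2, which encodes SREBP2, was at -0.03 ± 0.07 (adjusted p = 0.85). Without wild type replicate 1 the count of 2 rose to 6, and it was 1 without wild type replicates 2, 3, 4 or 8 or knockout replicates 4, 6 or 8.

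The bases before Insig1 are shown because it fell most among genes above 100 CPM; they lie at chr5:28071162-28071362 on the plus strand of GRCm38.p6 (RefSeq), before the gene start of either annotation used. Capitals mark an E-box (CACGTG, read the same on both strands) and a CCAAT box on the minus strand.
Insig1: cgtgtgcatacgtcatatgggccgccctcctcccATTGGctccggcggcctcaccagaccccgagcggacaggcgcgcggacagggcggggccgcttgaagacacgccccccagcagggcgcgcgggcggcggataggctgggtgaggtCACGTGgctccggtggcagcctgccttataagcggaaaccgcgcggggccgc
Of all promoter windows of 201 bases 4.36% held the E-box and 28.6% the CCAAT box. The sterol response element searched as TCACNCCAC on both strands was not among these letters, as in all but 0.816% of windows.

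Amino acid genes outside the branched-chain route were also among the falls. Cth, cystathionine gamma-lyase, stood at 3.09, 4.89 and 6.76 CPM against 1.43, 2.95 and 3.52 (-0.92 ± 0.21, adjusted p = 0.022). Looked up after its value was seen, Cbs, the enzyme before it in cysteine synthesis, fell from 4.17, 6.01 and 8.77 to 2.87, 3.76 and 4.44 CPM (-0.70 ± 0.13, adjusted p = 0.012). Csad, which makes taurine precursors from cysteine, and Gldc, the glycine cleavage enzyme, were found in the same way (-0.41 ± 0.07 and -1.16 ± 0.23, adjusted p = 0.0071 and 0.013). All 4 were called in every run without 1 library, and on the control diet their differences were -0.75, -1.07, -0.65 and -1.01 in the same order.

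Arg1, arginase 1, an enzyme of alternatively activated macrophages, had the highest log2 fold change of the called genes. It stood at 0.278, 1.12 and 2.56 CPM with the wild type label and at 1.36, 7.21 and 14.6 with the knockout label (2.67 ± 0.53, adjusted p = 0.016). Knockout replicates 7 and 8 lay within the wild type range and the other 6 above it. Ccl22, a chemokine for regulatory T cells, stood at 0.397, 1.06 and 1.42 CPM against 0.778, 3.68 and 6.42 (1.94 ± 0.34, adjusted p = 0.0071), with replicate 7 alone of the knockout label inside the wild type range. Adam8, a metalloprotease of leukocytes, Tnip3, an inhibitor of NF-kB signalling, and Gpr35, a G protein-coupled receptor of immune and gut cells, rose by 1.27 ± 0.26, 1.28 ± 0.28 and 1.08 ± 0.23 (adjusted p = 0.019, 0.021 and 0.02). All 5 passed in every run without 1 library, but by limma-voom Arg1, Ccl22, Adam8 and Tnip3 did not (adjusted p = 0.089, 0.061, 0.065 and 0.068), and with all 4 eWAT groups in 1 fit Tnip3 did not (adjusted p = 0.057).

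Broad macrophage markers were examined next. All 15 pan-macrophage genes were positive with a median of 0.40, and none passed the edgeR test, while 12 had an unadjusted p under 0.05, 10 were called by DESeq2's Wald test and 1 by limma-voom. Without wild type replicate 1, knockout replicate 5 or knockout replicate 7 the edgeR count was 6, 6 and 8. The summed level of the 15 genes was 766, 879 and 1103 CPM with the wild type label and 859, 1178 and 1781 with the knockout label, the highest being knockout replicate 6. On the control diet 3 of the 15 were lower, where 13.9% of all genes were, and 0 higher, with a median of 0.11. Of the 15, 3 passed the edgeR test of a difference between diets, and 0 with an offset for GC content. Of the 10 monocyte genes 3 were higher (30%, beside 1.48% of all genes), with a median of 0.54. Among them were Ccr2, the receptor that brings monocytes into tissue, at 43.9, 53.9 and 74.5 CPM against 56.9, 106 and 199.6 (0.90 ± 0.21, adjusted p = 0.031), and Ms4a4c (1.01 ± 0.27, adjusted p = 0.043). None of the 3 passed without wild type replicates 3, 5 or 7 or knockout replicates 1 or 3. Resident macrophage genes had 2 of 14 called higher (14.3%, beside 1.48% of all genes), Lyve1 and Mrc1, both endocytic receptors (0.36 ± 0.07 and 0.28 ± 0.07, adjusted p = 0.015 and 0.039). Mrc1 passed in 5 of the 16 runs without 1 library, and neither passed with all 4 eWAT groups in 1 fit. The count was 1 without wild type replicates 2, 3, 4, 5 or 7 or knockout replicates 1, 2, 3, 4, 6 or 8.

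**Figure D4:**
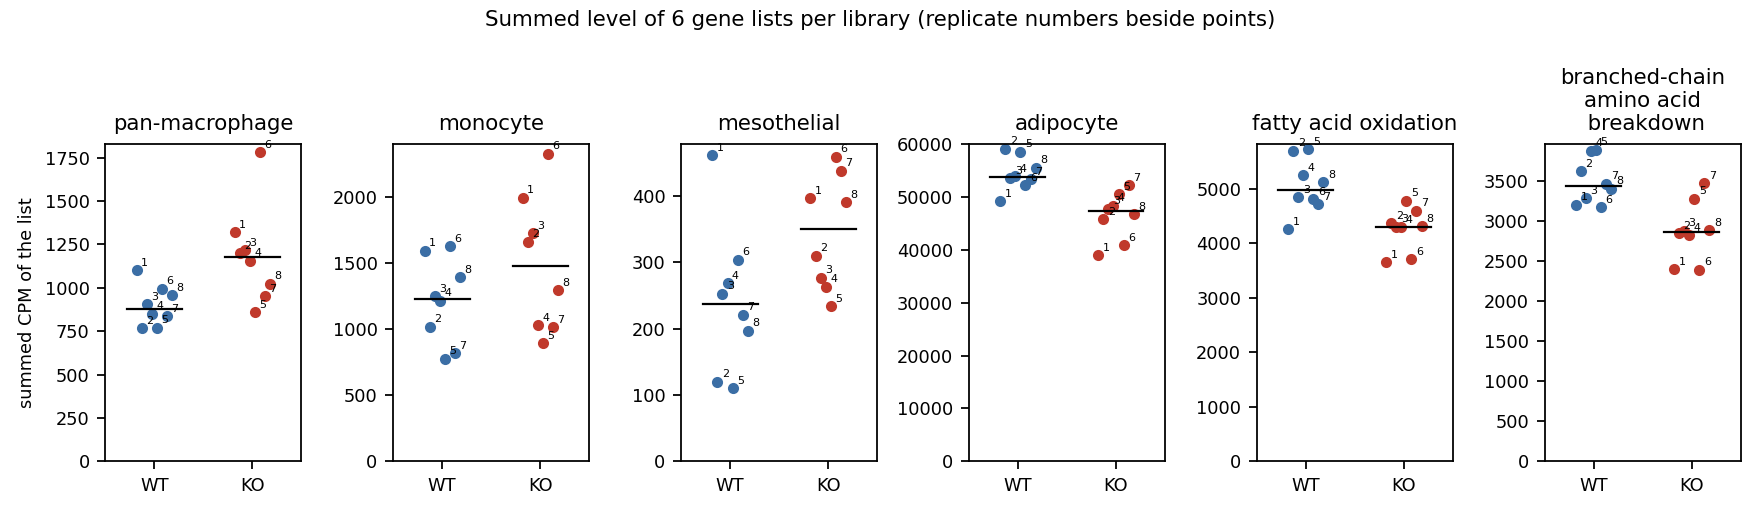
Summed CPM of the genes of 6 lists in each of 8 libraries labelled wild type (blue) and 8 labelled knockout (red), with replicate numbers beside the points and black lines at the medians; axes start at 0. Knockout replicates 1 and 6 are lowest for adipocyte and branched-chain genes and highest for pan-macrophage and monocyte genes, and wild type replicates 2 and 5 are lowest for mesothelial genes.

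Further called genes known from leukocytes are given as examples, picked after their values were seen and belonging to no list. Rac2, a GTPase of blood cells, separated without overlap at 6.59, 8.41 and 10.3 CPM against 10.7, 13.1 and 22.1 (0.68 ± 0.14, adjusted p = 0.017). Ptprc, the leukocyte marker CD45, rose by 0.57 ± 0.13 (adjusted p = 0.029), Itgb2, the beta-2 integrin chain, by 0.71 ± 0.17 (adjusted p = 0.038), and Spi1, the myeloid transcription factor PU.1, by 0.59 ± 0.14 (adjusted p = 0.034). Plcg2, which acts in myeloid receptor signalling, rose by 0.75 ± 0.16 (adjusted p = 0.017). Lymphocyte lists gave no calls by edgeR: the median was 0.16 over 14 T and NK cell genes (2 at an unadjusted p under 0.05, 1 by DESeq2) and 0.49 over 10 B and plasma cell genes (1, and 0 by DESeq2), and the B cell sum was 295, 532 and 1042 CPM against 272, 395 and 822.

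All 9 MHC class II genes, which present antigen, were positive, with a median of 0.57. Of them 2 were called (22.2%, beside 1.48% of all genes higher), H2-DMb1 and H2-DMb2, which load peptides (0.70 ± 0.18 and 0.82 ± 0.21, adjusted p = 0.039 for both). Of 13 dendritic cell genes Flt3 alone was called (7.69%, beside 1.48% of all genes higher; 0.89 ± 0.24, adjusted p = 0.046), and it passed in 5 of the 16 runs without 1 library. Neither MHC class II call was made without wild type replicates 2, 3, 4, 5, 7 or 8 or knockout replicates 2, 3, 4 or 6. Of 13 inflammatory cytokine genes 2 were called higher (15.4%, beside 1.48% of all genes). Csf1, the macrophage growth factor, rose from 41.7, 47.7 and 61.7 CPM to 52.2, 67 and 84.4 (0.47 ± 0.10, adjusted p = 0.019), and Ptgs2, cyclooxygenase 2, by 0.83 ± 0.22 (adjusted p = 0.044). Csf1 passed in all 16 runs without 1 library and Ptgs2 in 5. None of the 16 genes tested of the chemokine list, which does not hold Ccl22, and none of 15 interferon-induced genes passed the edgeR test, with medians of 0.36 and -0.04. By the Wald test 5 chemokine genes were higher and 1 interferon-induced gene lower, by limma-voom none, and 8 and 3 had an unadjusted p under 0.05.

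Stromal and surface cells of the depot were examined for shifts alongside. All 11 mesothelial genes were positive with a median of 0.49 and none was called by edgeR, DESeq2 or limma-voom (3 at an unadjusted p under 0.05). Their sum was 110.0, 237 and 462 CPM with the wild type label and 234, 350.5 and 459.5 with the knockout label. All 15 progenitor and fibroblast genes were positive, with a median of 0.23 and no call by edgeR (3 at an unadjusted p under 0.05, 1 by DESeq2). Prrx1 and Medag, both genes of adipose progenitors and looked up after their values were seen, rose from 34.1, 42.3 and 54.8 to 53.8, 69.7 and 80.4 CPM (0.67 ± 0.10, adjusted p = 0.0013) and from 38.2, 44.9 and 51.5 to 55.5, 64.7 and 78.9 CPM (0.54 ± 0.08, adjusted p = 0.0018). Medag separated without overlap. Col12a1, a collagen of stretched connective tissue, was the only one of 19 matrix genes called (0.72 ± 0.18, adjusted p = 0.038). That is 5.26% of the list, beside 1.48% of all genes higher, and Col12a1 passed in 7 of the 16 runs without 1 library. The part of macrophage, mesothelial and progenitor content in the differences of single genes was not tested.

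The remaining lists held few calls. The alternative activation list had 4 of 16 genes higher (Arg1, Ccl22, Il1rn and Ptx3; median 0.33), the lipid-associated macrophage list 2 of 15 (Spp1 and Lgals3; median 0.26) and the thermogenic list 2 of 7 lower (Cidea and Cox8b; median -0.43). The shares called were 25%, 13.3% and 28.6% in that order, beside 1.48% of all genes higher and 1.88% lower. By limma-voom no gene of the first 2 lists passed. The count of 4 was 2 without wild type replicates 2, 5, 6 or 8 or knockout replicates 1, 2, 3, 4, 6 or 8, and Ptx3 passed in 2 of the 16 runs without 1 library. Neither lipid-associated gene passed without wild type replicates 2, 4, 5, 6 or 8 or knockout replicates 2, 3, 4 or 6, or with all 4 eWAT groups in 1 fit. Apart from complement and neutrophil genes, the medians of the lists that follow lay between -0.11 and 0.24, with 2 of 17 lipogenesis genes lower and 1 gene higher among 17 of the lysosome (Ctss) and among 14 immediate early genes. By edgeR none was called of 19 genes of glucose use (6 at an unadjusted p under 0.05, 1 by DESeq2), 18 of endoplasmic reticulum and integrated stress (6 and 2), 15 of the cell cycle (0 and 0), 16 of the circadian clock (1 and 0), 8 of mural cells (1 and 0), 5 of red cells (0 and 0) or 8 of mast cells and eosinophils (2 and 0). The 2 lipogenic falls were Pnpla3 (-0.91 ± 0.22, adjusted p = 0.036) and Slc25a1, the mitochondrial citrate carrier (-0.42 ± 0.10, adjusted p = 0.031). The 1 immediate early gene was Ier3, which separated without overlap at 2.84, 3.05 and 3.7 CPM against 3.91, 5.5 and 6.49 (0.75 ± 0.12, adjusted p = 0.0022). Of 12 complement genes C2 was higher (0.34 ± 0.07, adjusted p = 0.019), with a list median of 0.30. Of 3 Schwann cell genes Mbp, a myelin protein, was higher (0.33 ± 0.08, adjusted p = 0.029), and none of 6 neutrophil genes passed by edgeR (1 at an unadjusted p under 0.05, 1 by DESeq2), with a median of 0.52.

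Whether a difference between the genotype labels was the same on the control diet was tested as an interaction in a fit of all 4 eWAT groups. In that fit 5.21% of 17140 genes were higher and 13.9% lower with the knockout label on the control diet. The control-diet difference was not fitted with an offset for GC content. Of the 226 genes higher on the ketogenic diet 50 were also higher on the control diet, 22.1% of the first list and 5.6% of the second. Of the 286 lower genes 126 were also lower there, 44.1% and 5.3%. Called the opposite way on the control diet were 8 of the 226 and 2 of the 286. The interaction itself was called for 8.31% of genes, 1193 higher and 232 lower on the ketogenic than on the control diet, and for 1.45% when an offset for GC content was added, so most interaction calls changed with that offset.

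Of the 512 genes called on the ketogenic diet 86 also passed the interaction, and 17 passed it both with and without the GC offset. Over all genes tested 8.31% passed without the offset and 1.45% with it, and the share passing both was not counted. The 512 were chosen by the ketogenic difference, which is part of the interaction, so the choice itself raises their share. Arg1 was one of 10 in which the ketogenic difference was the higher one (-0.16 ± 0.50 on the control diet, interaction 2.83 ± 0.72, adjusted p = 0.014, and 0.039 with the offset). Ier3 (interaction adjusted p = 0.0029 and 0.016), Adamtsl4 (0.0024 and 0.02), Rac2 (0.0067 and 0.037), Selplg, the ligand of P-selectin (0.0047 and 0.017), Mcub, a subunit of the mitochondrial calcium uniporter complex (0.0035 and 0.015), Tnrc18 (0.003 and 0.022) and Kcnn4, a calcium-activated potassium channel (0.0094 and 0.037), were among the others. Insig1 was one of 7 in which it was the lower one (-0.30 ± 0.18 on the control diet, interaction -1.04 ± 0.24, adjusted p = 0.0072 and 0.033). Pspc1, a paraspeckle protein (0.0022 and 0.012), and Clic5, a chloride channel protein (0.0028 and 0.012), were also among those 7. The interaction did not pass for Ccl22 (adjusted p = 0.095) or for Pcca (adjusted p = 0.61), which does not show that their differences were alike on both diets. Diet and library set coincide, but each set holds both genotype labels.

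**Figure D5:**
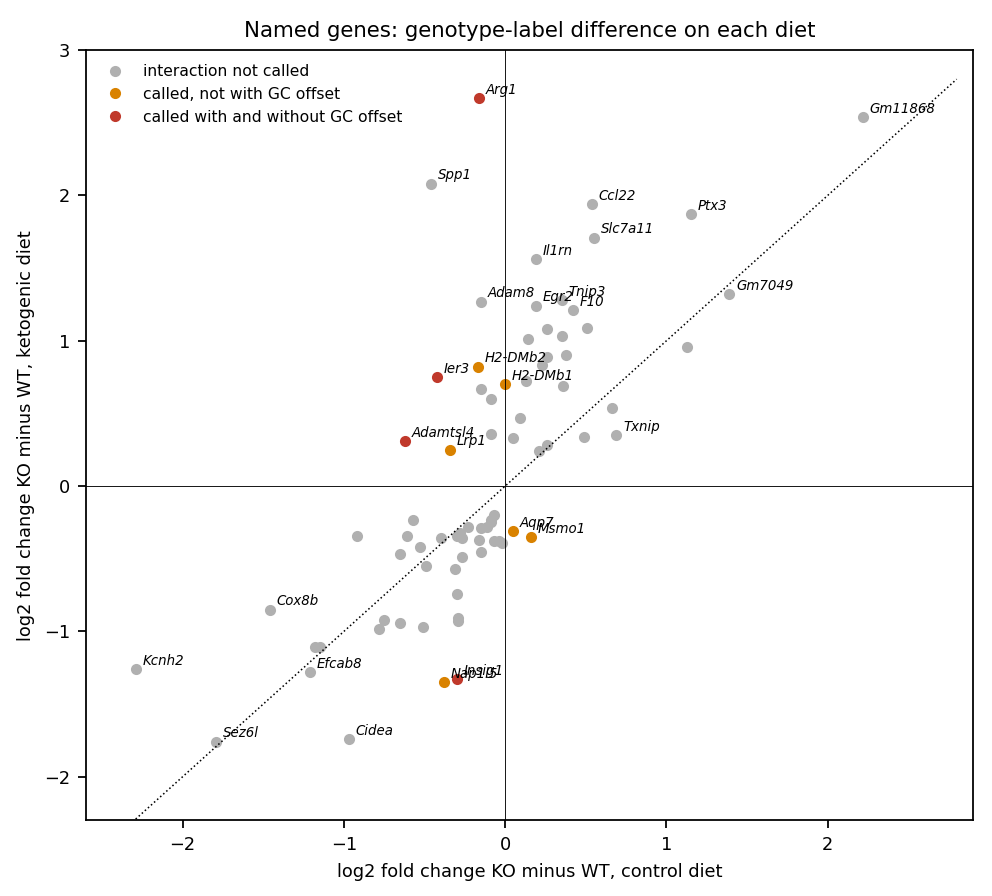
Log2 fold change, knockout minus wild type label, on the ketogenic diet (vertical, 8 and 8 libraries) against the control diet (horizontal, 7 and 7 libraries) for the 78 named genes called on the ketogenic diet; the dotted line marks equal values. Red points passed the interaction test with and without the GC offset (Arg1, Ier3, Adamtsl4, Insig1), orange points only without it, and grey points did not pass without it. A grey point can have passed with the offset, as Dgat1 did (edgeR adjusted p = 0.036).

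The remaining large falls were in genes of low level with no common list. Kcnh2, a potassium channel, fell from 2.43, 8.55 and 10.5 CPM to 2.06, 3.14 and 4.32 (-1.26 ± 0.23, adjusted p = 0.0073), and by 2.29 on the control diet. Sez6l, a membrane protein best known from brain, fell by 1.76 (SE 0.37, adjusted p = 0.019) and Unc79, a subunit of the sodium leak channel complex, by 0.97 (SE 0.17, adjusted p = 0.0058), the latter without overlap. Among called genes with the highest CPM, Lrp1, an endocytic receptor, rose from 713, 779 and 832 to 810.2, 930.0 and 1014 CPM (0.25 ± 0.05, adjusted p = 0.018). Acsl1, which activates fatty acids in adipocytes, fell from 1503, 2481 and 2821 to 1295, 1622 and 1924 CPM (-0.57 ± 0.12, adjusted p = 0.021), and Prkar2b, the adipocyte regulatory subunit of protein kinase A, from 1181, 1719 and 1940.4 to 1104, 1259.5 and 1593 (-0.38 ± 0.09, adjusted p = 0.036). In both of these the groups overlapped, and Acsl1 passed in all 16 runs without 1 library but Prkar2b in 4.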

How the data were processed

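The deposited values are raw counts of reads by gene. The submitters' processing notes name Trim Galore 0.6.0, the aligner STAR 2.7.8a and the build mm10, and the annotation release is not given in the sources used. The kit keeps the strand, per the labels' protocols, and column 4, the strand with the larger total, was used. Of 55471 gene IDs 55144 matched GENCODE vM21, which gave symbols, positions and GC content. Unassigned or ambiguous reads (7.13 to 8.39% of reads) and multimapping or unmapped reads (12.5 to 14.1%) were left out. Genes were tested in R 4.3.3 with edgeR 4.0.16 (filterByExpr, TMM, robust quasi-likelihood fit, two-sided), Benjamini-Hochberg adjusted, with calls under 0.05. An SE is the absolute log2 fold change over the square root of F. No pair of libraries with the same label was a copy, and pairs across the 2 labels were not checked. The steps were tested on simulated counts.

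The members and the 42 gene lists were chosen with earlier results of these data known. The genes named are Txnip, the 12 steepest rises and falls at 2 CPM or more, the 10 called genes of highest CPM, the 6 separated genes of smallest p, up to 4 called genes a list, 5 of the interaction and called genes within 5 Mb of Txnip; others are said to be chosen after their values were seen, or belong to a list. Alternatives were DESeq2 1.42.0, limma-voom (limma 3.58.1), no filter, all 4 eWAT groups, the unstranded column, a GC offset (span 0.3), a replicate block, thinned counts and leaving out each library. Some genes that the rule names or that belong to a list are not reported here.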

Additional observations from a re-analysis of the deposited data

Results flagged for a closer look

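Some single libraries stood apart from the other 7 of their group by more than a Dixon limit at 95%; 13 of 166 groups of values held such a library, where chance gives about 1 in 20. Knockout replicate 6 was the highest of its group for Ctss (169 CPM), F10 (8.21), Flt3 (3.65), Gpr35 (10.8), H2-DMb1 (20.3), Samd4b (50.6) and Slamf8 (6.43). Wild type replicate 1 was the highest for H2-DMb2 (2.76 CPM) and Ptx3 (4.46) and the lowest for Acadl (277 CPM). Wild type replicate 3 was the highest for Il1rn (6.04 CPM) and Lgals3 (127), and wild type replicate 8 for Efcab8 (9.51 CPM).

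Values here are the edgeR interaction (8 and 8 against 7 and 7 libraries, ketogenic minus control, log2 scale). The difference between the genotype labels itself differed between the diets for 15 of 83 named genes, beside 8.31% of all genes tested. It was higher on the ketogenic diet for Arg1 (2.83), Ier3 (1.17), H2-DMb2 (0.99), Adamtsl4 (0.94), Lypla2 (0.91), Tap2 (0.73), H2-DMb1 (0.70), Samd4b (0.67), Ptms (0.62), Lrp1 (0.59) and Grk2 (0.44). It was lower for Insig1 (-1.04), Nap1l5 (-0.98), Msmo1 (-0.51) and Aqp7 (-0.36). With the GC offset Arg1, Ier3, Adamtsl4, Lypla2, Tap2, Samd4b and Insig1 passed, and the others did not. Lypla2, Tap2, Samd4b, Ptms and Grk2 were not called on the ketogenic diet and were lower with the knockout label on the control diet. They were named for their small interaction p, so their passing was set by that choice. Most of the other named genes were chosen by their ketogenic difference, which is part of the interaction, so that choice raises their share as well. The control-diet difference was fitted without the GC offset. With that offset the interaction was -0.12 for Ptms and 0.15 for Grk2 (edgeR adjusted p = 0.67 and 0.23).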

How the results depend on the processing

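None of the 78 named genes called on the ketogenic diet reversed sign in that comparison under any alternative in which it was tested. Other results were not checked for sign in this way. The interaction of Ptms went from 0.62 to -0.12 with the GC offset. Counts of genes higher and lower with the knockout label (226 and 286) were 522 and 519 by the DESeq2 Wald test, 130 and 181 with thinned counts, and 180 lower without the low-count filter (151 higher). With 1 library left out they ranged from 87 to 371 and from 118 to 417. Of the 512 called genes 512 were also called by the Wald test, 503 with DESeq2 size factors, 502 with the GC offset, 468 in the unstranded column, 434 by limma-voom, 366 with 4 groups in 1 fit, 313 without the filter and 304 thinned.

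Replicate numbers were not taken to pair the libraries: 7 of 8 same-numbered pairs correlated over 0.1, and 10 of 16 libraries correlated best with their own number, a hint from the data and not the design. The replicate block gave 775 higher and 811 lower, and 771 and 861 with the GC offset as well; it called 77 of the 78 named genes, all but Ptx3 (adjusted p = 0.13). By list, the block called 12 pan-macrophage (0 without it) and 8 monocyte genes (3) higher, and 19 fatty acid oxidation (8), 17 oxidative phosphorylation (1), 16 branched-chain (9), 15 sterol (2), 12 TCA cycle (0) and 9 adipocyte genes (3) lower.

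The interaction (1193 higher, 232 lower) gave 150 and 98 with the GC offset, 687 lower by the Wald test, 71 lower without the filter and 416 lower with DESeq2 size factors, with ranges of 1011 to 1295 and 157 to 285 when 1 library was left out. Of the 78 named genes called, 37 were called in all 16 runs without 1 library and 65 by limma-voom. Causes of these shifts were not tested.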
